A study of Mus musculus with 23 samples.

Results

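Ndnf and 3 further genes, Tnip3, Mad2l1 and Qrfpr, were followed by all array probes that carry these names, which were 7 of the 56605 probes and 4 of the 36693 names on the array. Ndnf was chosen by its genotype differences in these arrays, where its signal was higher in hearts lacking Efnb1, so its genotype differences are given below as descriptions without a test. The question put to the other probes was whether genes lying beside Ndnf on the chromosome shared that rise. The samples were left ventricles of male mice of mixed S129/S4 and C57BL/6 background, 1 mouse per one-colour Agilent array, from wild-type mice (WT) and from mice with Efnb1 deleted in cardiomyocytes (Efnb1cKO). WT_P20 and Efnb1cKO_P20 were 20 days old with 6 mice each, WT_P60 held 5 mice and Efnb1cKO_P60 6 mice of 60 days, and all mice were fed chow under a light and dark cycle. The Cre line behind the deletion is not named in the labels, and other cell types of the ventricle keep the gene. In whole ventricles, fewer cells of a type and less RNA per cell cannot be told apart.

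Ndnf encodes a secreted glycoprotein, first described as a neurotrophic factor of neurons, that is reported to act on blood vessel growth and cardiomyocyte survival through AKT and to interact with FGF receptor signalling. Tnip3 encodes a binding partner of the ubiquitin-editing protein A20 (Tnfaip3), which restrains NF-kB signalling. Mad2l1 encodes the spindle checkpoint protein that holds back the anaphase-promoting complex until chromosomes are attached, and Qrfpr encodes a G protein-coupled receptor for an RF-amide neuropeptide. Efnb1 encodes ephrin-B1, a cell surface protein that binds Eph receptors.

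Because each level below is read by a single 60-base probe, the first 30 bases of the probes that carry the results are shown as the scanner files give them, 5′ to 3′. Capitals mark AATAAA, the hexamer of a polyadenylation signal, which 2 of the 7 whole probes hold (in Tnip3 A_55_P2744883 beyond the bases shown), as do 5529 of the 56605 probes of the array (9.77%, sense strand only).
Ndnf A_52_P956261: atgctaccccAATAAAattggttggtactg
Ndnf A_52_P442710: atgacgtgtgttctgcttaccttaagggaa
Tnip3 A_55_P2519475: aaggatgaatgttcctgacaagagtgcgag
Tnip3 A_55_P2744883: gctttagggaatttttgtccctgccaagga
Mad2l1 A_55_P2133255: cgaaatgcagcagtaagacacatttctctt
Mad2l1 A_51_P230873: catacaggatgaaattcgctcagtgattag
Qrfpr A_55_P2034341: catctgtgccataattaaaaaatcaaggag
The longest run that an Ndnf probe shared with a probe of another gene name was 14 bases for A_52_P956261 and 13 for A_52_P442710, and over all 7 probes it was at most 18 bases.

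In mm9 coordinates from the scanner files, both Ndnf probes lie on the plus strand of chromosome 6, A_52_P442710 at chr6:65655964-65656023 for the curated transcript NM_172399 and A_52_P956261 at chr6:65662191-65662250 for the predicted transcript XM_006506528, with 6227 bases between their centres. Distances below are counted from these probes, negative toward lower coordinates. Tnip3 is the nearest other gene with a tested probe, read at chr6:65582156-65582215 (-0.07 Mb) and chr6:65550106-65550165 (-0.11 Mb). Mad2l1 was read at chr6:66490836-66490895 and chr6:66488986-66489045, each 0.83 Mb away. The probe named Qrfpr lies elsewhere, at chr3:36078369-36078428 on the minus strand, and RefSeq (GRCm38.p6) also places Qrfpr on chromosome 3. Qrfpr is therefore not a chromosome 6 neighbour of Ndnf in the mouse. The receptor-like gene that RefSeq places beside Tnip3 is Qrfprl, which the array names C130060K24Rik. RefSeq gives the order of protein-coding genes up to Ndnf as Atoh1, Smarcad1, Hpgds, Qrfprl, Tnip3 and Ndnf, and 4930544G11Rik, Mad2l1, Vmn1r32 and Vmn1r33 follow on the other side. Exon or untranslated region was not determined for these probes.

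All levels are log2 intensities after scaling each array by its 75th percentile, and a probe's level says nothing about another probe's. Per array, 58.1% to 62.5% of the probes were well above background, and arrays of a group were correlated at 0.9892 to 0.9961. A probe entered the limma fit if 5 or more of the 23 arrays read it well above background, which 6 of the 7 probes and 35718 probes in all did. Efnb1 itself, on A_51_P388478, was 11.91 ± 0.34 (SD, n = 6) in WT_P20, 11.57 ± 0.15 (n = 6) in Efnb1cKO_P20, 11.37 ± 0.11 (n = 5) in WT_P60 and 10.89 ± 0.05 (n = 6) in Efnb1cKO_P60. The 2 genotypes did not overlap at P60 (-0.48, SE 0.117, limma adjusted p = 0.0651) and overlapped at P20 (-0.35, SE 0.111, limma adjusted p = 0.772).

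Ndnf was higher in knockout than in WT ventricles at both ages, and higher at P60 than at P20 in both genotypes. On A_52_P956261, the lowest, median and highest levels were 5.82, 6.40 and 6.64 in WT_P20 and 7.30, 7.84 and 8.09 in Efnb1cKO_P20. At P60 the 5 WT mice, replicates 1, 3, 4, 5 and 6, stood at 7.18, 7.23, 7.21, 7.41 and 7.00, and the Efnb1cKO mice had a lowest level of 8.50, a median of 8.72 and a highest level of 8.89. Every knockout array lay above every WT array of its age on this probe, with a gap in each case.

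The second probe, A_52_P442710, gave the same order of groups. Its lowest, median and highest levels were 4.20, 4.59 and 4.92 in WT_P20 and 5.50, 6.02 and 6.27 in Efnb1cKO_P20. The WT_P60 mice were at 5.53, 5.43, 5.47, 5.84 and 5.67, and the Efnb1cKO_P60 mice at 6.83, 7.18 and 7.29 for lowest, median and highest. Again no knockout array overlapped a WT array of its age. Complete separation with the knockout above was rare on the array, at 0.129% of tested probes at P20 and 1.14% at P60, but Ndnf was picked for this pattern and nothing is read from that share.

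**Figure D1:**
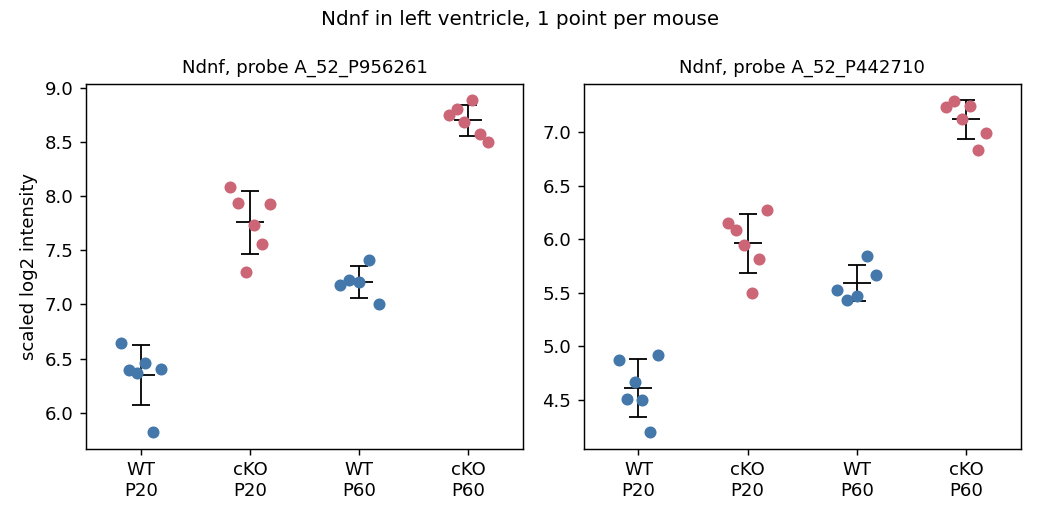
Scaled log2 intensity of the 2 Ndnf probes in the 4 groups, 1 point per mouse, with the group mean and SD as bars. Knockout arrays lie above WT arrays of the same age on both probes, and the Efnb1cKO_P20 and WT_P60 groups overlap in range.

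As mean ± SD, A_52_P956261 went from 6.35 ± 0.28 (n = 6) in WT_P20 to 7.76 ± 0.29 (n = 6) in Efnb1cKO_P20, a difference of 1.42 (SE 0.128, 95% interval 1.15 to 1.68), or 2.67-fold. At P60 it went from 7.21 ± 0.14 (n = 5) to 8.70 ± 0.15 (n = 6), a difference of 1.50 (SE 0.134, 95% interval 1.22 to 1.77), or 2.82-fold. A_52_P442710 differed by 1.35 (SE 0.129, 95% interval 1.08 to 1.62) at P20, between 4.61 ± 0.27 and 5.96 ± 0.28, and by 1.53 (SE 0.135, 95% interval 1.25 to 1.81) at P60, between 5.59 ± 0.17 and 7.12 ± 0.18. These are 2.55-fold and 2.89-fold. The size of the difference depended on the processing. For A_52_P442710 it was 0.60 at P20 and 0.91 at P60 under normexp background correction with an offset of 50. In the authors' own processed values it was 0.76 at P20.

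The genotype differences at the 2 ages were not resolved from each other. The difference at P60 minus that at P20 was 0.08 (SE 0.185, 95% interval -0.31 to 0.47) on A_52_P956261 and 0.18 (SE 0.186, 95% interval -0.21 to 0.57) on A_52_P442710. Changes of the genotype effect of up to 0.57 on the log2 scale were therefore not resolved. Leaving out Efnb1cKO_P20 replicate 3 turned the first value to -0.01.

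The 23 arrays were spread over 3 slides, each holding 2 arrays of every group except 1 WT_P60 array on the third slide. Within slides, the knockout minus WT difference of A_52_P956261 was 1.50, 1.65 and 1.1 at P20 and 1.51, 1.23 and 1.85 at P60. That of A_52_P442710 was 1.24, 1.60 and 1.22 at P20 and 1.70, 1.25 and 1.60 at P60. Because no knockout array overlapped a WT array of its age, a higher knockout mean on every slide was fixed beforehand and is no further support. The 2 Ndnf probes followed each other at a Pearson r of 0.976 over the 23 arrays, and at 0.609 over the deviations from the group means, where they share the RNA sample and array.

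Ndnf also rose with age, which is a separate comparison although it reuses the same arrays. In WT ventricles A_52_P956261 was higher at P60 by 0.86 (SE 0.134, limma adjusted p = 3.87e-05) and A_52_P442710 by 0.98 (SE 0.135, limma adjusted p = 9.11e-06). In knockout ventricles the rises were 0.94 (SE 0.128, limma adjusted p = 6.36e-06) and 1.16 (SE 0.129, limma adjusted p = 5e-07). The size of these rises depended on the processing. Over 10 alternatives A_52_P442710 rose by 0.44 to 1.03 in WT and by 0.75 to 1.2 in the knockout. A_52_P956261 rose by 0.60 to 0.91 and by 0.78 to 1.02, and each alternative kept the calls. No P60 array of a genotype fell among its P20 arrays on either probe. Rises past the threshold were common in this comparison, at 18.5% of tested probes in WT and 19.9% in the knockout, so Ndnf was 1 of many genes that rose with age.

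From lowest to highest, the Ndnf groups ran WT_P20, WT_P60, Efnb1cKO_P20 and Efnb1cKO_P60. The middle neighbours were the only ones in that order whose ranges overlapped. Efnb1cKO_P20 exceeded WT_P60 by 0.56 on A_52_P956261, with 5 of 6 knockout arrays above all WT_P60 arrays, and by 0.37 on A_52_P442710, with 4 of 6. The knockout at 20 days thus had an Ndnf signal that reached or passed that of WT hearts of 60 days.

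Tnip3, the nearest gene before Ndnf, did not pass the test for genotype at either age, as 0.0252% of all tested probes did at P20 and 0.599% at P60. On A_55_P2519475 the lowest, median and highest levels were 4.40, 4.73 and 4.91 in WT_P20 and 3.94, 4.76 and 4.84 in Efnb1cKO_P20. The WT_P60 mice were at 5.68, 5.56, 5.35, 5.92 and 5.75, and the Efnb1cKO_P60 mice at 5.44, 5.60 and 5.97 for lowest, median and highest. The genotypes overlapped at each age while the ages were apart. The genotype difference was -0.07 (SE 0.139, 95% interval -0.36 to 0.22, limma adjusted p = 1) at P20 and -0.01 (SE 0.146, 95% interval -0.31 to 0.30, limma adjusted p = 0.996) at P60. Both intervals end well below the Ndnf differences at the same ages.

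With age, Tnip3 rose in both genotypes. A_55_P2519475 was higher at P60 by 0.96 (SE 0.146, limma adjusted p = 2.91e-05) in WT and by 1.02 (SE 0.139, limma adjusted p = 6.35e-06) in the knockout. Over 10 processing alternatives these values ran from 0.42 to 1.02 and from 0.40 to 1.06, and both calls were kept. The neighbouring genes Ndnf and Tnip3 therefore both rose between 20 and 60 days. The other probe, A_55_P2744883, was well above background on 15 of 23 arrays, only 2 of them in WT_P20 and 3 in Efnb1cKO_P20. It differed between genotypes by 0.33 (SE 0.227) at P20 and -0.10 (SE 0.238) at P60, neither past the threshold. Its rise with age was 1.03 (SE 0.238, limma adjusted p = 0.00184) in WT and 0.60 (SE 0.227, limma adjusted p = 0.0398) in the knockout, and the latter call was lost under normexp correction (0.15, limma adjusted p = 0.108) and in 7 of 23 fits that left out an array. The WT rise kept its call over 9 processing alternatives but ran from 0.24 to 1.12.

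The Mad2l1 levels of the 4 groups overlapped on both probes. On A_55_P2133255 the lowest, median and highest levels were 7.66, 7.82 and 7.88 in WT_P20, 7.69, 7.83 and 8.04 in Efnb1cKO_P20, and 7.76, 7.86 and 7.91 in Efnb1cKO_P60. The WT_P60 mice were at 7.86, 7.81, 7.71, 7.80 and 8.05. The genotype difference was 0.03 (95% interval -0.09 to 0.15) at P20 and -0.01 (95% interval -0.14 to 0.12) at P60. On A_51_P230873 it was 0.08 (95% interval -0.10 to 0.26) at P20 and 0.08 (95% interval -0.11 to 0.27) at P60. The age differences of the 2 probes lay between 0.01 and 0.09, and none of these passed the threshold. The genotype by age interaction passed for no Tnip3 or Mad2l1 probe, against 0.0392% of all tested probes.

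**Figure D2:**
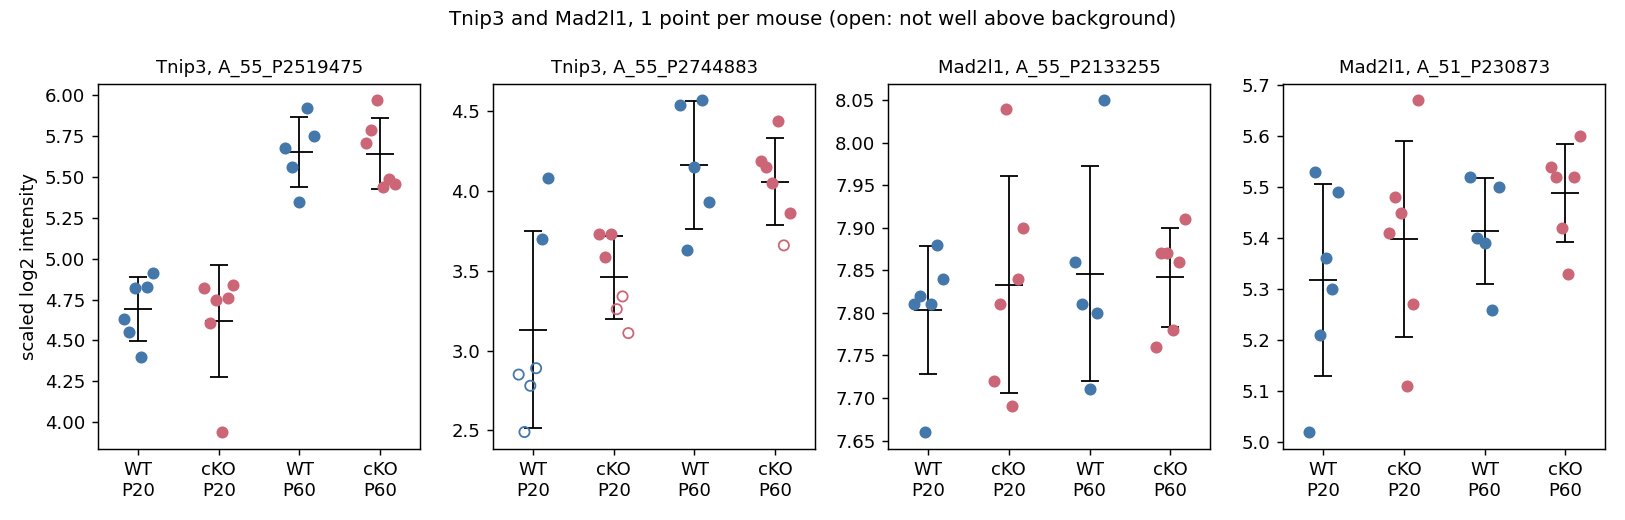
Scaled log2 intensity of the 2 Tnip3 and 2 Mad2l1 probes in the 4 groups, 1 point per mouse, with mean and SD as bars and open points for signals not well above background. Tnip3 is higher at P60 than at P20 in both genotypes, and the Mad2l1 groups overlap.

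Qrfpr gave almost no signal. A signal well above background came from 1 of 23 arrays, an Efnb1cKO_P60 array at 7.51, and the probe was not tested. The group medians were 1.97 in WT_P20, 1.61 in Efnb1cKO_P20, 2.12 in WT_P60 and 2.17 in Efnb1cKO_P60. Qrfprl, the gene beside Tnip3 that resembles Qrfpr in name, was read by A_51_P413075 at chr6:65407255-65407314 (-0.25 Mb) and had a signal well above background on 0 of 23 arrays. No genotype comparison can be drawn for either gene.

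Seen by position, the rise of Ndnf was not accompanied by calls around it. Within 5 Mb on either side the array had 186 other probes, of which 45 were tested, covering 39 names. At P20 none of the 45 passed the limma threshold for genotype, against 0.0252% of all tested probes, and 0 had an unadjusted p under 0.05. At P60 none of the 45 passed, against 0.599% of all tested probes, and 3 had an unadjusted p under 0.05. At these backgrounds fewer than 1 call among 45 probes would be typical, so the lack of calls is no result by itself. The 45 differences lay between -0.37 and 0.54 at P20 and between -0.61 and 0.79 at P60, and the upper end of each 95% interval, at most 1.31 at P20 and 1.49 at P60, lay below the smaller of the 2 Ndnf differences, 1.35 and 1.50. The margins are narrow, and Ndnf was chosen for its difference. Its own 95% intervals began as low as 1.08 at P20 and 1.22 at P60. These limits lie below the highest of those upper ends, so not every one of the probes was set apart from Ndnf. With an array left out the Ndnf differences fell to 1.27 at P20 and 1.44 at P60, below those upper ends. No probe was called within 10 Mb either, where 165 were tested.

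The nearest named genes give this in detail. Before Ndnf, beyond Tnip3, Gm8479 differed by 0.09 at P20 and -0.12 at P60. Hpgds, a prostaglandin D synthase, differed by 0.27 and -0.19, and Smarcad1, a chromatin remodeller, by 0.04 and -0.09 on A_51_P255565. Ccser1, at -3.89 Mb, differed by -0.05 and -0.42. After Ndnf, the gene 4930544G11Rik differed by -0.37 and -0.01 with a wide SE of 0.445 and 0.466. Gng12, a G protein gamma subunit, differed by -0.01 and -0.04, and Gadd45a, a DNA damage response gene, by 0.08 and 0.05. None of these passed the limma threshold for genotype at either age.

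The 3 probes with an unadjusted p under 0.05 at P60 are named here after their values were seen. E230016M11Rik (A_51_P181025) and an unnamed transcript probe beside it (A_30_P01022870) lie 1.36 and 1.37 Mb after Ndnf. At P60 they were well above background on 1 and 0 of the 11 arrays, so their differences there, up to the 0.79 that ends the range above, compare signals at background. A_55_P2925449, 1 of 2 Ccser1 probes, differed by -0.42, and the other by -0.03. The smallest limma adjusted p in the window was 0.437.

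**Figure D3:**
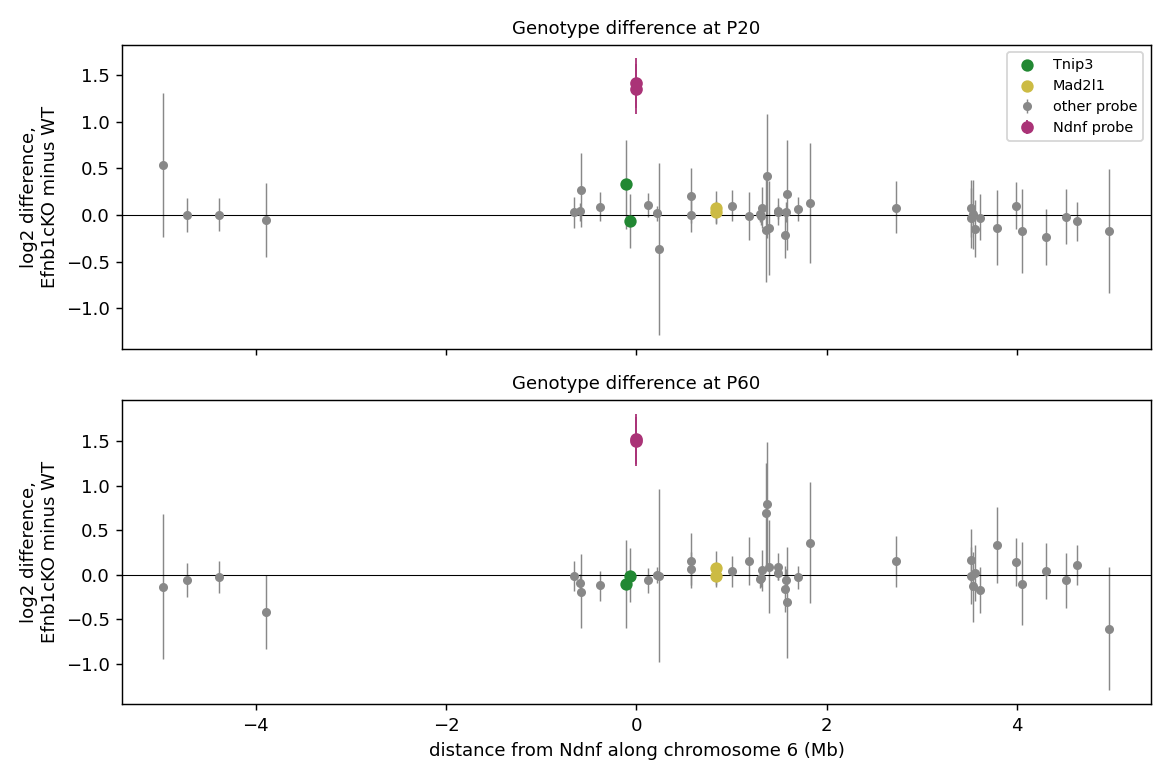
Log2 difference between Efnb1cKO and WT with its 95% interval for the tested probes within 5 Mb of Ndnf, against distance from the Ndnf probes in Mb, at P20 (top) and P60 (bottom). The 2 Ndnf points stand at 1.35 to 1.53 and the 45 others between -0.61 and 0.79.

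With age, probes around Ndnf passed the threshold in both directions. Over the 5 Mb window their shares were below those of the array. In WT 10 of the 45 probes passed the threshold (22.2%, against 36.6% of all tested probes), 6 higher and 4 lower at P60. In the knockout 14 passed (31.1%, against 39.8%), 6 higher and 8 lower. Within 2 Mb 10 of 28 probes passed in WT (35.7%) and 13 in the knockout (46.4%), and within 1 Mb 4 of 14 (28.6%) and 9 (64.3%), so that the knockout shares there were above that of the array and the WT shares below. Besides Tnip3, the transcript AK052921 (A_66_P119576, 0.57 Mb), also named after its value was seen, rose by 1.19 (limma adjusted p = 3.02e-06) in WT and 1.15 (limma adjusted p = 1.95e-06) in the knockout, and differed between genotypes by 0.20 at P20 and 0.16 at P60. Gadd45a fell by 0.46 in WT (limma adjusted p = 0.00261) and by 0.49 in the knockout (limma adjusted p = 0.000915). In the knockout, Hpgds fell by 0.84 (limma adjusted p = 0.0013). In WT it was lower by 0.39, not past the threshold (limma adjusted p = 0.138), and its genotype by age interaction was not called.

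Along the whole chromosome, 1825 probes were tested (5.11% of all), and 5 of the 9 probes called for genotype on the array at P20 lay there, 2 of them the Ndnf probes. Without Ndnf, 3 of 1823 passed at P20 (0.165%, against 0.0252% of all tested probes and 0.0118% off chromosome 6) and 13 at P60 (0.713%, against 0.599% and 0.587%). These P20 shares rest on few calls, since the 9 became 5 without Efnb1cKO_P20 replicate 1 or 4 and 20 without Efnb1cKO_P20 replicate 6. The nearest called probe outside Ndnf was 29.37 Mb away at P20 (9330158H04Rik) and 11.06 Mb away at P60 (Plekha8, 0.27 at P60), and these genes too are named after their values were seen. A stretch of 1.90 Mb, from Nup205 at -30.51 Mb to AK082250 at -28.61 Mb, stood out after the values were seen, so its counts support nothing. There 2 of 17 tested probes passed at P20 and 5 at P60. The probe A_52_P477649 of 1810058I24Rik was lower in the knockout by -0.48 (SE 0.043, limma adjusted p = 3.59e-06) at P20 and -0.42 (SE 0.045, limma adjusted p = 1e-05) at P60, while its other probe, A_51_P416613, differed by 0.08 and 0.07 and was not called. Of 3 probes of Nup205, a nucleoporin, A_55_P2733442 was higher by 0.57 (SE 0.097, limma adjusted p = 0.00399) at P60, and the others, not called, differed by -0.27 and -0.14. An unnamed transcript probe (A_30_P01033037, -28.87 Mb), well above background on 6 Efnb1cKO_P60 and 0 WT_P60 arrays, was at least 3.58-fold higher in Efnb1cKO_P60 (means of 5.24 and 2.53, limma adjusted p = 1.18e-05). AK082250 was well above background on 10 arrays, all of the knockout, so its call is no support, and was at least 1.26-fold higher at P60. Dgki, a diacylglycerol kinase, reached the fit through 5 Efnb1cKO_P60 arrays alone, so its call is no support, and was at least 1.32-fold higher in Efnb1cKO_P60 than in WT_P60. The Dgki bound sets the knockout mean of 3.73, with 5 of 6 arrays well above background, against 3.34, the WT mean after each WT array's signal was raised to the lowest that counted as well above background there. The measured WT mean was 1.25, and the other bounds were made in the same way.

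**Figure D4:**
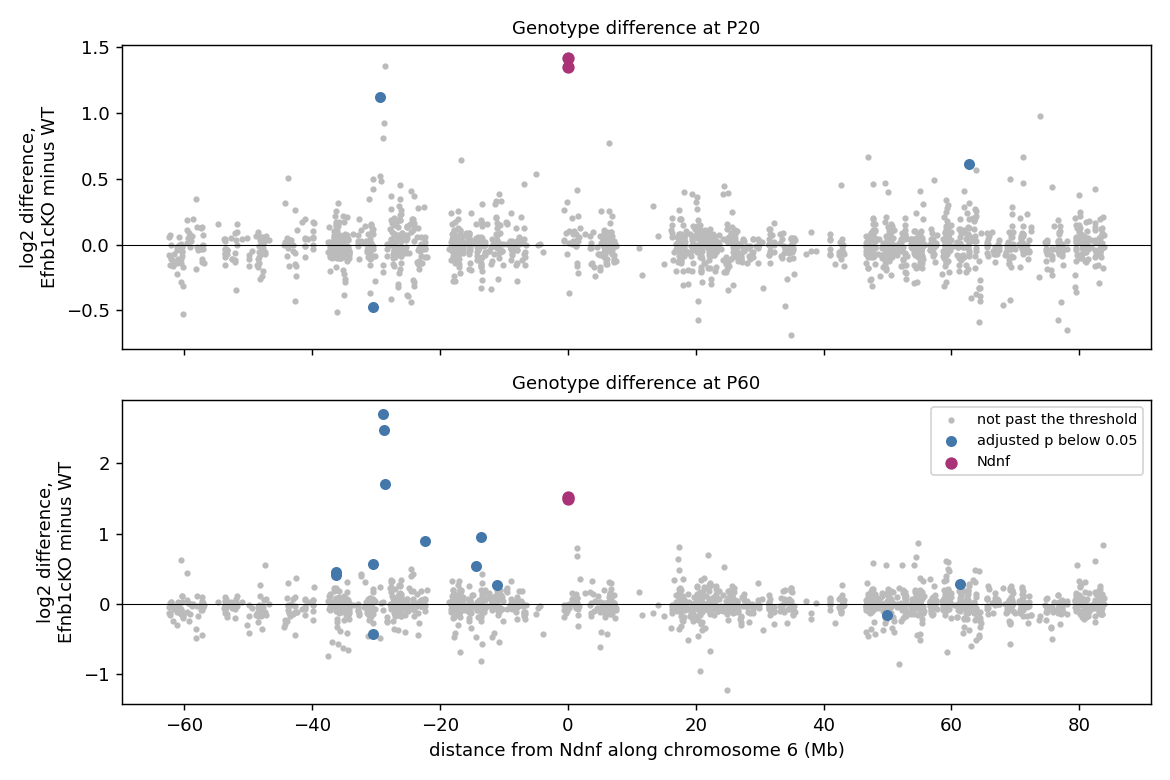
Log2 difference between Efnb1cKO and WT for all 1825 tested probes of chromosome 6, against distance from Ndnf in Mb, at P20 (top) and P60 (bottom), with Ndnf and other probes past the threshold coloured. No other probe is coloured within 10 Mb of Ndnf, and the nearest other coloured points are 29.37 Mb away at P20 and 11.06 Mb away at P60.

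The genes whose levels were most like those of Ndnf were read next. Over the 23 arrays, the mean of the 2 Ndnf probes correlated most with Myh7 (A_55_P2093232, r = 0.957), the slow myosin heavy chain, then with Atp11a (0.934), a phospholipid flippase, Rhod (0.919) and the alpha-defensin probes Defa2 (0.903) and Defa-rs7 (0.902). Under quantile normalization Atp11a came first (0.959) and Myh7 second (0.956). Defa2 was well above background on the 6 Efnb1cKO_P60 arrays alone, so its r rests on that group. Myh7 had the order of group means seen for Ndnf, at 11.01, 13.63, 14.87 and 15.98 in WT_P20, WT_P60, Efnb1cKO_P20 and Efnb1cKO_P60. Since Myh7 was picked by its r over these groups, that order is no further support. The probes of 4 of them have a coordinate, on chromosomes 14, 8, 19 and 8, and that of Defa-rs7 has none. On the same scale Tnip3 reached 0.522 and 0.505 on its 2 probes and Mad2l1 0.074 and 0.387. Over deviations from the group means, where group differences are removed, the highest were Sdcbp (0.842), Bcat1 (0.799), Faxc (0.753), Ifi204 (0.747) and Tex30 (0.721), which fell to rank 9 under quantile normalization, and Tnip3 gave 0.316 and 0.102. Of these the Bcat1 probe lies on chromosome 6, from base 144947709, and the others on chromosomes 4 and 1. These correlations describe arrays that share slides and RNA handling.

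Pathway partners were read for genotype on 6 lists. Lists of 23 genes of FGF receptor signalling, 14 of AKT and nitric oxide signalling, 19 of NF-kB and A20, 19 of the spindle checkpoint, 9 of RF-amide peptides and receptors and 21 Eph receptors and ephrins were read through their brightest probes. Of them 23, 14, 19, 17, 5 and 18 were tested, and 0 passed the limma threshold for genotype at either age in any list, against 0.0303% of 23133 genes at P20 and 0.692% at P60. At these shares calls would be rare in lists of such sizes, so the lack of calls is no result by itself. Efnb1, the deleted gene, is on the last list and also missed the threshold at P60 (-0.48, limma adjusted p = 0.0651). An unadjusted p under 0.05 was reached in the order given by 1, 1, 2, 1, 0 and 3 genes at P20 and by 3, 1, 2, 0, 0 and 1 at P60. The next 4 genes are named for their roles, after their values were seen. Fgfr1, an FGF receptor, differed by -0.01 (SE 0.049) at P20 and -0.06 (SE 0.051) at P60. Akt1 differed by -0.04 and -0.01, and Nos3, the endothelial nitric oxide synthase, by -0.05 and -0.08. Tnfaip3, which encodes A20, differed by 0.07 (SE 0.069) and -0.01 (SE 0.073). Other genes of these lists differed more, among them Tnip1 by 0.10 and 0.13 and Ptk2 by -0.11 and -0.10, neither past the threshold. In the AKT list 3 genes were higher and 11 lower at P20, and 2 higher and 12 lower at P60, with medians of -0.043 and -0.042. The spindle list had a median difference of -0.217 at P20 and 0.041 at P60, beside 0.002 and 0.000 over all genes.

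With age in WT, against 38.0% of all genes, 6 of 23 FGF genes passed, 5 higher and 1 lower. Fgf10, a growth factor ligand, rose by 1.54 (limma adjusted p = 0.00013) with 2 of 6 WT_P20 arrays well above background, and Spry2, a feedback inhibitor of the pathway, fell by 0.38 (limma adjusted p = 0.000517). In the AKT list 4 of 14 passed, all higher, led by Prkaa2 at 0.34 and Akt2 at 0.20. In the NF-kB list 9 of 19 passed, all higher, with Relb, an NF-kB subunit, rising by 0.73 (limma adjusted p = 2.61e-06), Ccl2, a chemokine, by 0.69, and Nfkbia, the IkB alpha inhibitor, by 0.62. In the spindle list 3 of 17 passed, all higher, among them Mad2l1bp at 0.31, whose product binds the Mad2l1 protein, and the count ran from 2 to 5 as single arrays were left out, with 5 without WT_P20 replicate 5 or 6 or Efnb1cKO_P20 replicate 6. Npff, an RF-amide peptide gene, fell by 0.56 and was 1 of 5 to pass, a count that was 2 under 8 of 10 processing alternatives and without any 1 of WT_P20 replicates 1, 4 and 6, Efnb1cKO_P20 replicates 3 and 5 and WT_P60 replicate 1. Of the 18 Eph and ephrin genes 4 rose and 7 fell, with Epha4 higher by 1.29 and Efnb2 lower by 0.70. In the knockout, against 40.1% of all genes, 9 of 23 FGF, 5 of 14 AKT, 8 of 19 NF-kB, 7 of 17 spindle, 2 of 5 RF-amide and 11 of 18 Eph and ephrin genes passed with age. The AKT count was 3 under quantile normalization and with the authors' values. The spindle count there ran from 4 without Efnb1cKO_P20 replicate 3 to 11 without replicate 6.

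Markers of cell types that a ventricle sample could hold were read in the same arrays. Of 11 marker lists, 10 had 0 genes past the genotype threshold at either age. In the skeletal muscle list 1 of 5 tested genes passed at P60, Tnnt3 at 0.68 (limma adjusted p = 0.00831), against 0.692% of genes. Tnnt3 was 0.38 higher at P20 (limma adjusted p = 0.744), and Mylpf, a fast-muscle myosin light chain, 0.82 at P20 (limma adjusted p = 0.0865) and 0.69 at P60 (limma adjusted p = 0.0565), neither past the threshold. The 5, most of it from Acta1 and Ckm, summed to 22100 to 42400 in WT_P60 and 33700 to 40900 in Efnb1cKO_P60. The summed intensity of the 8 cardiomyocyte markers was 1150000 to 1370000 in WT_P20 and 1200000 to 1430000 in Efnb1cKO_P20, and 8 of 8 were above background on all arrays. The 10 endothelial markers summed to 61500 to 82700 in WT_P20 and 62600 to 78000 in Efnb1cKO_P20, and the 7 neuron and Schwann markers to 3010 to 3890 and 3390 to 3770. At P60 those 2 lists summed to 54800 to 61600 and 3550 to 3810 in WT, and 51200 to 59200 and 3730 to 4320 in the knockout. The 4 erythroid markers had a median difference of 0.523 at P20 and -0.095 at P60, and the 4 adipocyte markers 0.225 and 0.527. The 5 tested epicardial and mesothelial markers had a median difference of 0.354 at P20 and 0.056 at P60. At P20 Msln was at 0.86, Upk3b at 0.52, Krt19 at 0.35, Tbx18 at -0.07 and Wt1 at -0.14, none past the threshold. Upk3b and Krt19 were well above background on only 10 and 18 of the 23 arrays. They summed to 856 to 1220 in WT_P20 and 824 to 2060 in Efnb1cKO_P20. Atrial markers had the largest median difference at P20. All 3 tested of 4 listed, Myl7, Myl4 and Sln, were higher in Efnb1cKO_P20 with a median difference of 1.357, none past the threshold, and their summed intensity was 1930 to 58500 in WT_P20 and 4990 to 174000 in Efnb1cKO_P20. At P60 the atrial median difference was 0.146, with sums of 4470 to 118000 in WT and 6450 to 44200 in the knockout. The part of atrial tissue, mesothelium, skeletal muscle, fat and blood in the Ndnf differences was not tested.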

How the data were processed

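Per the file headers, spots were read with Agilent Feature Extraction 10.10.1.1, and the deposited intensity in the processed signal column is background-subtracted. The submitters' processing notes also name limma. The authors' processed table holds log2 values of 34370 probes and served only as an alternative. Here, log2 intensity was scaled to the 75th percentile of its array, control and outlier spots were left out, and probes well above background on at least 5 of 23 arrays were tested. limma 3.58.1 in R 4.3.3 fitted the 4 groups together (19 residual degrees of freedom), two-sided, with Benjamini-Hochberg adjustment over 35718 probes and a threshold of 0.05. The number of arrays limits the precision. Coordinates are those of mm9 in the scanner files, and RefSeq GRCm38.p6 gave names and gene order only, with 24787 of 36693 array names matched. The named genes are the members, the 5 nearest named genes on each side, the 5 of highest correlation in each way, and up to 4 members per list past the threshold, and others were named after their values were seen. A gene that this rule chose is not reported here. Members, lists and rules were chosen with earlier results of these data known. Same-numbered mice of the 2 genotypes had correlated deviations of 0.031 to 0.387 at P20 and -0.165 to 0.273 at P60, so the numbers were not taken as pairs. Alternatives covered the background correction, normalization, filters, blocks for slide, column and replicate number, the samples in the fit, window sizes and the removal of each array.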

Additional observations from a re-analysis of the deposited data

Results flagged for a closer look

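Of 24 groups of 4 or more arrays examined over the 6 tested probes, 3 had a single array far from the others, where chance gives about 1 in 20. On the Ndnf probe A_52_P956261, WT_P20 replicate 5 was at 5.82 and the other WT_P20 arrays between 6.37 and 6.64. On the Tnip3 probe A_55_P2519475, Efnb1cKO_P20 replicate 4 was at 3.94 and the others between 4.61 and 4.84. On the Mad2l1 probe A_55_P2133255, WT_P20 replicate 3 was at 7.66 and the others between 7.81 and 7.88. The 3 arrays are different mice.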

How the results depend on the processing

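The genotype differences of Ndnf stayed above 0 under every alternative run, but their size did not stay. Normexp background correction gave 1.01 at P20 and 1.19 at P60 on A_52_P956261 and 0.60 and 0.91 on A_52_P442710, and the authors' values gave 1.16 at P20 on the first and 0.76 and 1.14 on the second. With an array left out, the differences were 1.31 to 1.51 and 1.44 to 1.55 on the first probe and 1.27 to 1.44 and 1.49 to 1.59 on the second. The genotype by age value of A_52_P956261 ran from -0.01 to 0.19 over the 23 arrays left out, turning sign without Efnb1cKO_P20 replicate 3. The age rise of Tnip3 A_55_P2744883 in the knockout lost its call under normexp correction (0.15, limma adjusted p = 0.108), with no filter on dim probes (0.60, limma adjusted p = 0.0661) and with the replicate block (0.60, limma adjusted p = 0.064), and with an array left out it ran from 0.53 to 0.68. The replicate number as a block changed no other call of the members, and gave 7 calls for genotype over the array at P20. Over all probes, leaving out an array gave 5 to 20 calls for genotype at P20 and 131 to 263 at P60. The interaction, 14 calls, had 9 under normexp and 5 with probes well above background on all 23 arrays. Around Ndnf, no alternative gave a genotype call within 5 Mb, and none was found within 1, 2 or 10 Mb. Over the whole chromosome, without Ndnf, there were 3 at P20 and 13 at P60. The age calls within 5 Mb were 9 under normexp in the knockout, and other windows gave 4 of 14 (1 Mb), 55 of 165 (10 Mb) and 644 of 1823 (chromosome) in WT and 9, 59 and 724 of the same in the knockout. In the ephrin list, 1 gene passed for genotype at P60 with only the compared groups in the fit or without WT_P20 replicate 5 or 6. Dim probes such as those of Qrfpr and Qrfprl limit what these arrays can show, and the cause of these shifts was not tested.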
